A study of Mus musculus with 2 samples.

Results

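The genes described here encode 6 inhibitors of cyclin-dependent kinases: Cdkn1a, Cdkn1b, Cdkn2a, Cdkn2b, Cdkn2c and Cdkn2d. They were found by symbol among the 32285 genes measured in single cells of the mouse aorta, and each symbol occurred once (ENSMUSG00000023067, ENSMUSG00000003031, ENSMUSG00000044303, ENSMUSG00000073802, ENSMUSG00000028551 and ENSMUSG00000096472, in that order). The set was selected on measured values of these same libraries, among them an earlier result for Cdkn1a in smooth muscle, so the levels and ratios below are descriptions without a test.

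The aortas came from mice at 1 month of age, both male and female, that were either wild-type or carried a knock-in mutation of matrix Gla protein (MGP), a secreted inhibitor of calcification that binds bone morphogenetic proteins. The study asks how the mutation bears on the differentiation of cells in the aortic media. The labels' protocols state that the adventitia was dissected away, the tissue was digested enzymatically and DAPI-stained dead cells were removed by sorting. Each genotype is 1 library with the same batch label, and the sources used here give neither the mutated residue nor the number of mice pooled in a library. There is thus no replicate check, and every interval below covers counting error only, not the spread between cells or mice.

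The wild-type library gave 3588 cells with a median of 20395.5 unique molecular identifiers (UMIs, 1 per captured RNA molecule) and the knock-in library 6089 cells with a median of 11653. The median mitochondrial share was 1.87% and 3.07%. Mgp was read at 7387 and 8234 CPM (UMIs of a gene per 1e6 total UMIs), which does not tell the mutated transcript from the normal one. Only 4 cell barcodes occurred in both libraries. Cells were clustered without the 6 genes and named from marker lists: 248 wild-type and 2336 knock-in cells were smooth muscle cell (SMC)-like, 2395 and 2121 fibroblast-like, 353 and 294 macrophage or monocyte-like, 64 and 45 endothelial-like, and 106 and 29 formed a cycling cluster led by Pimreg, Prc1, Ckap2 and Pbk. The 8 SMC markers summed to 45209 and 43559 CPM in the SMC-like cells, and the 8 fibroblast markers to 55257 and 51546 CPM in the fibroblast-like cells. The remaining cells lay in a small mesothelial-like cluster and in 4 unnamed clusters.

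Cyclin-dependent kinases, switched on by cyclins, drive a cell from G1 into DNA synthesis and then through mitosis. A pair of protein families holds them back. Members of the CIP/KIP family (p21 from Cdkn1a, p27 from Cdkn1b) bind cyclin-kinase complexes of several phases, and Cdkn1a is the best known transcriptional target of p53. In the GENCODE vM21 annotation a gene model on the opposite strand overlaps Cdkn1a, and the sources do not say whether counting used strand. Members of the INK4 family (p16 from Cdkn2a, p15 from Cdkn2b, p18 from Cdkn2c, p19 from Cdkn2d) bind the cyclin D partners CDK4 and CDK6. Cdkn2a also encodes ARF, which stabilises p53, from a second start and another reading frame. In arteries these genes are known as brakes on the division of smooth muscle cells, and the Cdkn2a and Cdkn2b locus as a region associated with vascular disease.

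The promoters of 3 members are shown because these genes carry the patterns below. Cdkn1a was spread unevenly over fibroblast-like, SMC-like and macrophage-like cells. Cdkn2c and Cdkn2d were high together in the cycling cluster. All 6 members matched the RefSeq promoter table (build GRCm38.p6), with 9 start sites in all. Each sequence holds the 250 bases before a start, on the gene's own strand, from chr17:29090729-29090978 (plus strand) for the upstream start of Cdkn1a, chr4:109666757-109667006 (minus strand) for Cdkn2c and chr9:21291210-21291459 (minus strand) for Cdkn2d. Capitals mark a p53 response element in Cdkn1a and a CCAAT box in Cdkn2d.
Cdkn1a: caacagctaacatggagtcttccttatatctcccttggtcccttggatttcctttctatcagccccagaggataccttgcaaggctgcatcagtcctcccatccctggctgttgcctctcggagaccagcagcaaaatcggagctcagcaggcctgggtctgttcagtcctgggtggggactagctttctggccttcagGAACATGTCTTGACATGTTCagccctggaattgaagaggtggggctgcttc
Cdkn2c: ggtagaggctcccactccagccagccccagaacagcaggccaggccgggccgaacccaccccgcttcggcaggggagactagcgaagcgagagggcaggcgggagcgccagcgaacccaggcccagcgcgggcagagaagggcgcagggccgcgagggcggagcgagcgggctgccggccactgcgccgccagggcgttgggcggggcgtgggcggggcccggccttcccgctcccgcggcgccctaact
Cdkn2d: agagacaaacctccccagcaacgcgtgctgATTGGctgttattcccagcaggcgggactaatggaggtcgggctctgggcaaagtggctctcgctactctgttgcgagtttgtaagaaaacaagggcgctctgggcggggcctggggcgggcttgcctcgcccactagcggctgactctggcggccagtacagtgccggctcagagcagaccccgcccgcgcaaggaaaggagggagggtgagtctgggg

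The p53 response element of Cdkn1a begins 51 bases before the upstream start and has 1 letter off the consensus of a pair of adjacent half-sites; no exact match lay in this window, and the tolerance of 1 letter was set after that was seen. Of 32851 promoter windows of the same length, 25 (0.0761%) held such an element, and the other 8 windows of the 6 genes did not. E2F sites were searched on both strands as TTTCCCGC, TTTGGCGC, TTTCGCGC or TTTGCCGC, which 1.86% of all windows hold. The window before the ARF start of Cdkn2a held 1, 99 bases before the start, and those of Cdkn2c and Cdkn2d did not hold these letters. The CCAAT box, which 33.8% of windows hold in either direction, lay 220 bases before the start of Cdkn2d, and 2 lay before Cdkn1b. A cell cycle homology element, searched on both strands as TTTGAA or TTCGAA (17.1% of windows), was found before Cdkn2b. The libraries read RNA and not these sites, so each match is a description.

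Each gene had its own order over the cell types (plot of levels by class). Cdkn1a was read at 354 CPM in wild-type and 345 CPM in knock-in macrophage-like cells, 302 and 234 in the cycling cluster, 200 and 192 in fibroblast-like, 144 and 104 in endothelial-like, and 179 and 50.8 in SMC-like cells. The knock-in SMC-like cells had the lowest level of the gene among the 5 classes, with an interval (48.3 to 53.3 CPM) below those of the other 9 groups. Of the unnamed clusters, the 33 knock-in cells led by Mcpt4 and Cma1 were lower still, at 43.4 CPM. In RNA free of cells, measured in barcodes of 10 to 100 UMIs, Cdkn1a stood at 201 and 142 CPM. This was above both SMC-like and both endothelial-like levels, and near the fibroblast-like level of the wild-type. In the wild-type the intervals of free RNA (179 to 226 CPM) and SMC-like cells (168 to 192 CPM) overlapped.

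Cdkn1b, whose protein p27 is abundant in resting cells, was even by comparison. It was read at 60.3 CPM in wild-type and 61.4 CPM in knock-in SMC-like cells, 68.9 and 70.5 in fibroblast-like, 58.1 and 62.9 in endothelial-like, 36.5 and 38.7 in macrophage-like and 92.2 and 87.7 in cycling cells. Macrophage-like cells were thus lowest and cycling cells highest in both libraries. SMC-like, fibroblast-like and endothelial-like cells had neighbouring levels, and the intervals of the endothelial-like cells (43.4 to 76.2 and 42.1 to 90.4 CPM) took in both of the others. Free RNA held 52.0 and 72.7 CPM.

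**Figure D1:**
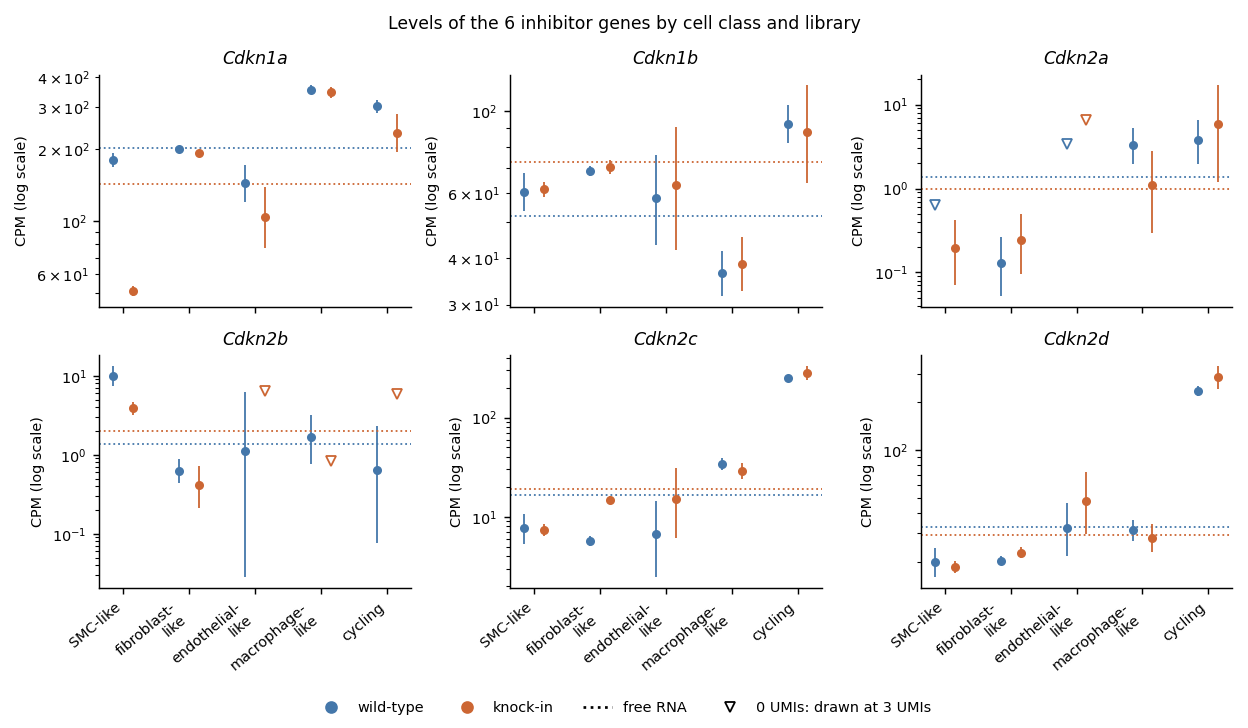
CPM of each inhibitor gene (log axis) in 5 cell classes, wild-type in blue and knock-in in orange, with exact 95% Poisson intervals; dotted lines are free RNA, and open triangles stand at 3 UMIs where a class had 0. Cdkn1a drops to 50.8 CPM in knock-in SMC-like cells, Cdkn2b peaks in SMC-like cells, and Cdkn2c and Cdkn2d peak in cycling cells.

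The INK4 genes split into a scarce pair and a cell-cycle pair. Cdkn2a, the gene of p16 and ARF, gave 39 UMIs over all wild-type and 28 over all knock-in cells. In wild-type cells, 18 of these lay in macrophage-like, 12 in cycling and 7 in fibroblast-like cells. The 248 SMC-like cells of the wild-type had 0, where 3 UMIs would be 0.639 CPM, and the 2336 of the knock-in had 6 UMIs (0.195 CPM). These reads do not show which of the 2 proteins they belong to.

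Cdkn2b was highest in SMC-like cells of the wild-type. It was read at 10.0 CPM (47 UMIs) in wild-type and 3.87 CPM (119 UMIs) in knock-in SMC-like cells, against 0.628 and 0.412 CPM in fibroblast-like cells. Endothelial-like cells had 1 UMI in the wild-type library and 0 in the knock-in, and macrophage-like cells 9 UMIs (1.66 CPM) and 0. Of the unnamed clusters, those led by Pln and Sncg (3.07 and 3.53 CPM) and by Mdga2 and Chrm2 (4.27 and 3.61 CPM) had levels near that of knock-in SMC-like cells, on 3 to 11 UMIs. Free RNA held 1.37 and 1.97 CPM, on 2 and 6 UMIs (intervals 0.166 to 4.94 and 0.724 to 4.30 CPM). The wild-type SMC-like level lay above the interval of its library, and the knock-in fibroblast-like level below. The knock-in SMC-like and wild-type fibroblast-like levels lay within theirs.

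Cdkn2c was read at 250 CPM in wild-type and 282 CPM in knock-in cycling cells. It came next at 34.3 and 29.1 CPM in macrophage-like cells, followed by 7.67 and 7.39 in SMC-like and 5.72 and 14.8 in fibroblast-like cells, with free RNA at 16.4 and 19.1 CPM. Cdkn2d was read at 235 and 284 CPM in cycling cells, 31.5 and 28.3 in macrophage-like, 32.4 and 47.7 in endothelial-like, 20.3 and 22.8 in fibroblast-like and 19.8 and 18.5 in SMC-like cells, with free RNA at 32.8 and 29.3. Among these classes other than the cycling cluster, the levels of both genes lay below free RNA, except Cdkn2c in macrophage-like cells and Cdkn2d in knock-in endothelial-like cells. The intervals of Cdkn2d in endothelial-like cells were 21.7 to 46.5 and 29.9 to 72.3 CPM and overlapped those of macrophage-like cells.

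In SMC-like cells 2 inhibitor genes were lower in the knock-in. Cdkn1a was 3.54-fold lower (50.8 against 179 CPM; log2 ratio -1.82, 95% interval -1.94 to -1.70), and Cdkn2b was 2.59-fold lower (3.87 against 10.0 CPM; log2 ratio -1.37, -1.87 to -0.85). Cdkn1b (0.03, -0.15 to 0.21), Cdkn2c (-0.05, -0.57 to 0.50) and Cdkn2d (-0.10) were within 1.5-fold. Of the 6 genes, 5 had at least 50 UMIs over both libraries, and 0 of them were at least 1.5-fold higher and 2 at least 1.5-fold lower. Over all 12065 genes with as many UMIs in these cells, 8.06% were at least 1.5-fold higher and 7.6% at least 1.5-fold lower. Since the genes were selected with such values in view, nothing is read from the count.

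The lower Cdkn1a level of knock-in smooth muscle was found in cells of both sexes and at each depth. Sex here was called cell by cell from RNA and is not a label of the animals. Among all kept cells, 8.70% in the wild-type library were called neither sex and 2.12% both. In the knock-in library these shares were 18.8% and 1.76%. Such cells were left out wherever female or male cells are named. Female cells gave 185 CPM for wild-type and 49.5 for knock-in (-1.90), and male cells 190 and 51.5 (-1.88). Cells of 8000 to 20000 UMIs gave 145 and 46.1 CPM (-1.66), cells over 20000 UMIs 211 and 75.5 CPM (-1.49), and cells under 8000 UMIs 179 and 45.4 CPM (-1.98, on 9 wild-type UMIs). Cdkn2b was lower in both sexes too, at -1.27 in female and -1.33 in male cells, on 16 and 26 wild-type UMIs. The summed level of the 8 fibroblast markers in SMC-like cells was 6142 CPM for wild-type and 3868 for knock-in; its part in these differences was not tested.

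All 4 unnamed clusters had less Cdkn1a in the knock-in, to unequal extents. The cluster led by Mcpt4 and Cma1 went from 361 to 43.4 CPM (-3.06, -3.76 to -2.36), on 7 wild-type and 33 knock-in cells. Its leading genes mix mast cell genes with T cell genes such as Trbc2 and Cd3g. Without doublet removal, a cluster led by Trbc2 and Trbc1 held 1 wild-type and 31 knock-in cells. The ratio may thus set unlike cell types side by side, and their part in it was not tested. The unnamed cluster led by Mdga2 and Chrm2, with both SMC and fibroblast markers, went from 349 to 134 CPM (-1.38, -1.61 to -1.15). The unnamed cluster of low depth led by Mlana and Ndufa4l2 went from 209 to 113 CPM (-0.89, -1.07 to -0.70), and the unnamed cluster led by Pln and Sncg, whose best list was SMC, from 262 to 205 CPM (-0.36, -0.57 to -0.14). Macrophage-like cells differed by less than their counting error (-0.04, -0.14 to 0.07). Cdkn1b was within 1.5-fold in each of these 5 groups. Endothelial-like cells had Cdkn1a at -0.47 (-0.98 to 0.02) and cycling cells at -0.37 (-0.65 to -0.09), both within 1.5-fold. Cdkn2b in macrophage-like cells went from 9 UMIs to 0, which is 2.02-fold lower with 3 UMIs put in place of the 0. The upper end of its log2 interval was -0.41, and 0.88 in female and 1.02 in male cells.

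**Figure D2:**
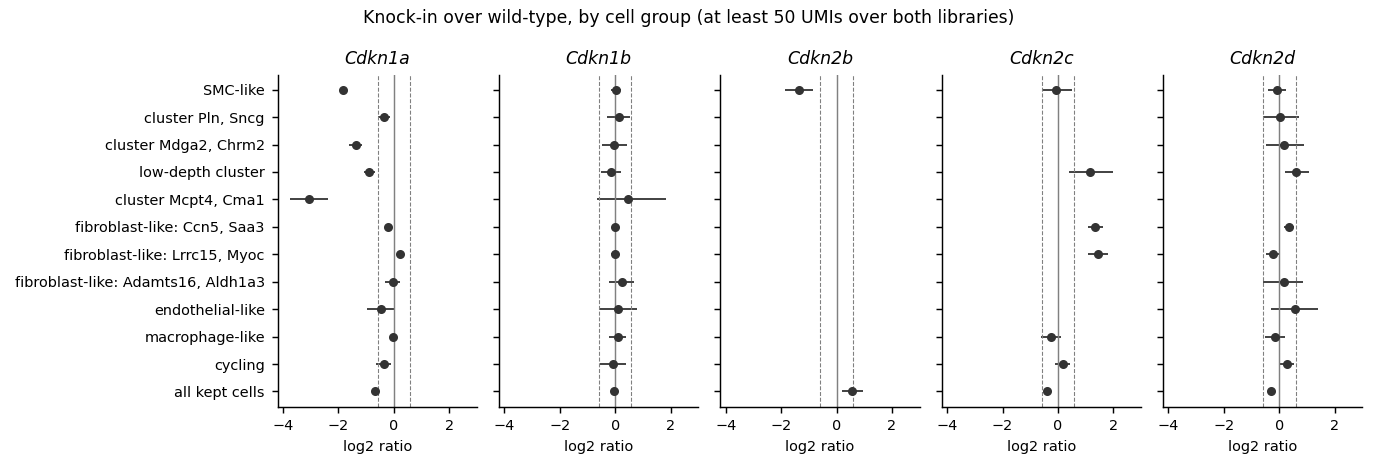
Log2 ratio of knock-in over wild-type for 5 inhibitor genes by cell group, points with exact 95% intervals (counting error only), dashed lines at 1.5-fold; groups under 50 UMIs are left blank and Cdkn2a never reached that number. Cdkn1a spreads from -3.06 in the small cluster led by Mcpt4 and Cma1, which mixes mast cell and T cell genes, and -1.82 in SMC-like cells to 0.24 in a fibroblast-like cluster. Cdkn1b is within 1.5-fold in each group drawn, and Cdkn2c is above 1 in the 2 large fibroblast-like clusters and the low-depth cluster.

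Fibroblast-like cells had a different member apart. Cdkn2c was 2.58-fold higher in the knock-in (14.8 CPM on 430 UMIs against 5.72 CPM on 310 UMIs; log2 ratio 1.37, 1.15 to 1.58). It was higher in both large fibroblast-like clusters, by 1.34 in the one led by Ccn5 and Saa3 and by 1.46 in the one led by Lrrc15 and Myoc, and in cells of both sexes (0.99 in female, 1.72 in male). The small fibroblast-like cluster led by Adamts16 and Aldh1a3 had too few UMIs of it for a ratio (3 for knock-in, 10 for wild-type; 3.14 against 3.47 CPM). Cdkn1a (-0.06), Cdkn1b (0.03) and Cdkn2d (0.17) were within 1.5-fold. Of 4 members with at least 50 UMIs, 1 was higher and 0 lower, where 7.82% and 6.81% of 13985 genes were.

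The Cdkn2c difference in fibroblast-like cells varied with depth on the wild-type side. Knock-in cells had 14.6 CPM at 8000 to 20000 UMIs and 15.8 above 20000 UMIs, whereas wild-type cells had 8.56 and 4.87, so the ratio was 0.77 (0.45 to 1.11) in the first range and 1.70 (1.35 to 2.05) in the second. All of these levels were below the free-RNA level of their library. The part of free RNA in the difference was not tested beyond a subtraction at 5% of cell UMIs, which gave a ratio within the interval.

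The near-equal Cdkn1a level of fibroblast-like cells was the sum of unlike parts. In cells of 8000 to 20000 UMIs it was 252 CPM for wild-type and 175 for knock-in (-0.53, -0.60 to -0.46), and in cells over 20000 UMIs 186 and 258 CPM (0.48, 0.40 to 0.55). Among clusters, it was lower in the knock-in in the cluster led by Ccn5 and Saa3 (211 against 181 CPM) and higher in that led by Lrrc15 and Myoc (188 against 222 CPM). Each of these differences was smaller than 1.5-fold.

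Sums over whole libraries pointed another way than the classes for 2 members. Over all kept cells Cdkn2b was higher in the knock-in (1.36 to 2.02 CPM; 0.57, 0.19 to 0.95), although it was lower within SMC-like cells, which were 6.91% of the wild-type library's cells and 38.4% of the knock-in's. Cdkn2c was lower over all cells (18.8 to 14.3 CPM; -0.39, -0.51 to -0.28), although it was higher within fibroblast-like cells. Of its 1374 wild-type UMIs 789 came from the 106 cycling cells, and of its 1059 knock-in UMIs 145 from the 29 cycling cells. Cell shares in 1 library per genotype cannot be told apart from the dissection and sort.

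The partners and regulators of these inhibitors were described from lists. In SMC-like cells, D-type cyclins and their kinases, the targets of INK4 proteins, had none of 4 measured members past 1.5-fold (median -0.13, against -0.05 over all genes). Ccnd2 was read at 304 and 372 CPM (0.29) and Cdk6 at 67.6 and 56.0 CPM (-0.27). Pocket proteins and E2F factors, which act downstream, had 0 of 10 higher and 2 lower (median -0.05), with Rb1 at -0.07 and Tfdp1 at -0.69. E-, A- and B-type cyclins and their kinases had 2 of 3 higher and 0 lower (median 0.62) at low levels, such as 1.28 and 2.28 CPM for Ccnb2. The larger knock-in sum favours genes high in the knock-in among those measured. All 7 genes of this list together were at 11.9 CPM for wild-type and 15.6 for knock-in.

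The list of p53 and its targets other than Cdkn1a had a median of -0.39 in SMC-like cells, with 5 of its 19 measured members at least 1.5-fold lower in the knock-in and 1 higher. The death receptor Eda2r went from 7.03 to 1.76 CPM (-2.00, -2.65 to -1.33), Phlda3, an inhibitor of AKT signalling, from 85.0 to 33.9 CPM (-1.33, -1.49 to -1.16), and the antiproliferative gene Btg2 from 930 to 589 CPM (-0.66). The stress-response gene Sesn1 was at 93.6 and 133 CPM (0.50). In fibroblast-like cells the same list had 1 of 19 higher, 0 lower and a median of -0.09, and Eda2r was higher there (13.0 to 21.0 CPM; 0.70, 0.54 to 0.86).

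Of other lists in SMC-like cells, genes of p27 turnover and FoxO factors had 1 of 11 lower and 0 higher (median 0.02), the one being Skp2, a ubiquitin ligase subunit that recognises p27 (6.39 to 2.60 CPM; -1.30, -1.92 to -0.64). Regulators of the INK4 locus had 1 of 12 higher and 1 lower (median -0.10), the Polycomb genes Cbx7 (1.04) and Cbx8 (-0.85). Immediate early and dissociation stress genes, which tissue digestion can raise, had 2 of 17 higher and 0 lower (median -0.03), with Fos at -0.19 and Nr4a1 at 0.69. The S phase list had 0 of 16 apart (median 0.02) and the G2/M list 3 of 4 measured genes higher (0.76). The knock-in sum held 30714526 UMIs and the wild-type sum 4691620. Genes of low level therefore reached 50 UMIs more readily when high in the knock-in, and nothing is read from the G2/M count. All 20 G2/M genes together were at 14.9 CPM for wild-type and 18.1 for knock-in.

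Clock genes, kept as a check of collection time, moved much further than the inhibitors: in SMC-like cells 11 of 16 were higher in the knock-in and 3 lower (median 1.64), with Dbp at 6.82 and 234 CPM (5.10). In fibroblast-like cells 10 of 16 were higher and 3 lower (median 1.69). Several inhibitors are known to vary over the day in other tissues; the part of collection time in these differences was not tested.

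In fibroblast-like cells the partner lists were flat. D-type cyclins and their kinases (0 of 5 apart, median -0.02), pocket proteins and E2F (0 of 12, -0.13) and genes of p27 turnover and FoxO (0 of 11, 0.00) had no gene at least 1.5-fold apart. Regulators of the INK4 locus had 1 of 13 higher (Cbx7, 0.91) and 1 lower (Tbx3, -1.72 on 64 UMIs). Immediate early genes had 1 of 17 higher (Ier3, 0.76) and 0 lower (median 0.03). Lists of dividing cells had lower members: G2/M 5 of 13 (median -0.52), S phase 1 of 20 (-0.26), and E-, A- and B-type cyclins and their kinases 2 of 5 (Ccnb2 -0.63, Cdk1 -0.63). Here the wild-type sum was the larger (54171714 against 29119040 UMIs), which favours genes high in the wild-type among those measured. All 20 G2/M genes together were at 23.1 CPM for wild-type and 18.5 for knock-in, and all 7 of the cyclin list at 18.7 and 18.6. Of 2 inhibitors outside the set, the CIP/KIP member Cdkn1c was 139 CPM for wild-type and 86.5 for knock-in (-0.69, -0.75 to -0.62) and the phosphatase gene Cdkn3 was at -0.76 on 58 UMIs. In SMC-like cells Cdkn1c was at 0.40.

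Within each library, the cycling cluster held the highest levels of Cdkn2c and Cdkn2d. Against fibroblast-like cells of the same library, Cdkn2c was 5.45 higher on the log2 scale in the wild-type (250 against 5.72 CPM; 5.26 to 5.64) and 4.26 in the knock-in (282 against 14.8; 3.98 to 4.53). Cdkn2d was 3.53 (3.39 to 3.67) and 3.64 (3.37 to 3.90) higher. The CIP/KIP genes were nearer to level: Cdkn1a at 0.59 (0.49 to 0.69) and 0.28 (0.01 to 0.54), Cdkn1b at 0.42 and 0.31. In the wild-type library 3 of 4 measured members were at least 1.5-fold higher (20.5% of 13364 genes higher, 14.9% lower), of which Cdkn1a lay at the threshold and passed it under 6 of 11 alternatives (range 0.23 to 0.89), and in the knock-in 2 of 4 (29.7% of 12264 higher, 22.7% lower).

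Depth and the makeup of the cluster differed beside these values. Cycling cells had a median of 29900 UMIs for wild-type and 18694 for knock-in, and fibroblast-like cells 22412 and 12894. With only cells of 8000 to 20000 UMIs, 15 and 6 cycling cells were left, and Cdkn2c stood at 3.38 and 4.80 and Cdkn2d at 1.86 in the wild-type. Knock-in cycling cells had more SMC marker RNA (5376 against 1458 CPM) and endothelial marker RNA (269 against 18.1 CPM) than wild-type ones.

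Cdkn2a followed the same direction on few reads, with 12 UMIs in wild-type cycling cells (3.80 CPM, against 0.129 in fibroblast-like cells; 4.88, 3.42 to 6.46) and 3 UMIs in knock-in ones (5.84 against 0.240 CPM; 4.60, 2.02 to 6.73). Cdkn2b had 2 and 0 UMIs there.

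**Figure D3:**
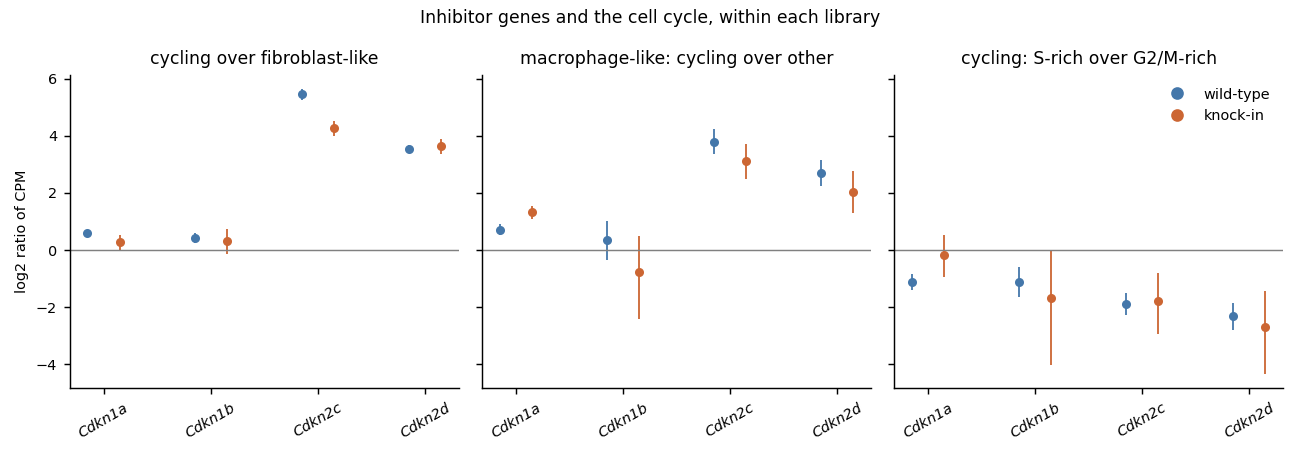
Log2 ratios within each library (wild-type blue, knock-in orange, exact 95% intervals): cycling over fibroblast-like cells, macrophage-like cells with at least 0.3% cell-cycle UMIs over those below, and cycling cells richer in S than in G2/M UMIs over the opposite. Cdkn2c and Cdkn2d are above 2 in both first panels and below -1.7 in the third.

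The pair was high in macrophage-like cells with cell-cycle RNA as well. Macrophage-like cells with at least 0.3% of their UMIs from the S and G2/M lists numbered 20 for wild-type and 11 for knock-in. They had Cdkn2c at 228 and 174 CPM, against 16.5 and 20.1 in the other macrophage-like cells (3.79, 3.36 to 4.22; and 3.11, 2.50 to 3.71). Cdkn2d stood at 140 and 98.8 CPM against 21.5 and 23.9 (2.70 and 2.05), and Cdkn1a at 0.72 and 1.32. The threshold is a point on a range, with 7 and 8 macrophage-like cells within 1.5-fold of it. Not every group with cell-cycle RNA had the pair as high. In the unnamed knock-in cluster led by Mcpt4 and Cma1, 24 of 33 cells passed the same threshold. Cdkn2c and Cdkn2d were at 38.0 and 59.6 CPM over that cluster, below the 282 and 284 CPM of the knock-in cycling cluster.

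Inside the cycling cluster Cdkn2c, Cdkn2d and Cdkn1b were lower in S-rich than in G2/M-rich cells of both libraries. Cells with more G2/M than S UMIs (81 wild-type, 24 knock-in) had 301 and 325 CPM of Cdkn2c, and cells with more S than G2/M UMIs (24 and 5) had 81.7 and 94.7 CPM (-1.88, -2.29 to -1.50; and -1.78, -2.94 to -0.81). Cdkn2d was at 289 and 337 CPM against 58.5 and 52.6 (-2.30, -2.78 to -1.86; and -2.68, -4.33 to -1.42). Cdkn1b was at 106 and 100 CPM against 49.0 and 31.6 (-1.11, -1.66 to -0.60; and -1.67, -4.00 to -0.02, the latter on 3 UMIs in S-rich cells). The S-rich cells had more Cdkn2c and Cdkn2d than fibroblast-like cells. Cdkn1a was also lower in S-rich cells of the wild-type (159 against 344 CPM; -1.11), but in the knock-in the interval included 0 (-0.18, -0.96 to 0.52).

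The 2 genes were often read in the same cycling cell. After thinning to 5000 UMIs, 41 of 103 wild-type cycling cells (39.8%) had UMIs of both Cdkn2c and Cdkn2d, 18 only Cdkn2c, 16 only Cdkn2d and 28 neither. In the knock-in, 10 of 22 cells had both. Among fibroblast-like cells 0.380% and 0.901% had both, and among SMC-like cells 0.410% and 0.390%. Each gene was also far lower in these classes. Of the 103 wild-type cycling cells, 59 had Cdkn2c and 57 had Cdkn2d, and whether they met in a cell more often than these shares give was not tested.

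Their partners separated in the same cells. E-, A- and B-type cyclins and their kinases were higher in all of 7 measured genes in each library (medians 6.73 and 7.33), such as Ccna2 at 245 against 0.148 CPM in the wild-type. D-type cyclins and their kinases had 1 of 5 higher and 2 lower in the wild-type (median 0.04) and 2 of 5 and 2 in the knock-in (-0.02): Cdk4, a target of INK4 proteins, was at 82.2 CPM in fibroblast-like and 156 in cycling cells of the wild-type (0.92), while Ccnd2 was lower in both (-1.05 and -1.29). Pocket proteins and E2F had 9 of 13 and 7 of 11 higher and 0 lower (medians 1.22 and 1.12), with E2f7 at 4.47 and 5.28. The S phase list had 20 of 20 and 19 of 19 higher and the G2/M list 20 of 20 in each, but these lists mark the cluster.

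Other lists moved less in cycling cells. Genes of p27 turnover and FoxO had 4 of 11 higher in the wild-type and 5 higher and 1 lower in the knock-in (medians 0.12 and 0.34), led by Cks2, a subunit of cyclin-dependent kinase complexes (5.94 and 6.07). Regulators of the INK4 locus had 4 of 13 and 5 of 12 higher and 1 and 2 lower, with the Polycomb genes Ezh2 (3.08 and 3.40) and Suz12 (1.82 and 2.27) among the higher. The p53 list had 3 of 19 and 4 of 19 higher and 4 lower in each (medians -0.19 and -0.14). Immediate early genes had 7 and 12 of 17 lower and 0 higher, clock genes 4 of 15 and 9 of 16 lower with 0 and 3 higher, and Cdkn3 was at 7.87 and 9.12.

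Cdkn1a RNA was spread unevenly over fibroblast-like, SMC-like and macrophage-like cells. After thinning to 5000 UMIs, 61.0% of wild-type and 67.6% of knock-in fibroblast-like cells had 0 Cdkn1a UMIs, while single cells reached 22. The top 5% of cells held 39.7% and 45.7% of its UMIs, against 30.8% and 31.1% for Cdkn1b, 51.8% and 54.6% for Cdkn2d and 100% and 68.8% for Cdkn2c, whose UMIs were few (68 and 157 for Cdkn2c, 249 and 218 for Cdkn2d). The variance over the mean was 4.34 and 4.91 for Cdkn1a, and between 0.984 and 1.11 for Cdkn1b, Cdkn2c and Cdkn2d. In cycling cells it was 3.36 and 1.43 for Cdkn1a, and in the 22 knock-in ones Cdkn2c (3.48) and Cdkn2d (1.83) were above Cdkn1a. In SMC-like cells the ratio for Cdkn1a was 5.68 (wild-type) and 3.30 (knock-in), and 67.2% and 87.8% of cells had 0 UMIs.

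Fibroblast-like cells and knock-in SMC-like cells rich in Cdkn1a were also rich in other p53 targets. This comparison was chosen after the uneven spread was seen: cells with 3 or more thinned Cdkn1a UMIs were set against cells with 0 in the same library and class, and Cdkn1a itself was left out. In wild-type fibroblast-like cells (291 against 1415), 12 of the p53 list's 18 measured members were at least 1.5-fold higher and 0 lower, with a median of 1.00, where 5.33% of 9777 genes were higher. In knock-in fibroblast-like cells (237 against 1375) it was 13 of 18 with a median of 0.96, where 6.15% of 9601 genes were higher. In the SMC-like cells of the knock-in (56 against 2011) it was 10 of 17 with a median of 1.34, where 17.9% of 9814 genes were higher. These 56 cells also held more RNA of Gria3 (42.9 against 1.39 CPM) and Ano3 (35.7 against 0.40 CPM). Both genes had too few UMIs there to count as measured. Both were also higher in Cdkn1a-rich fibroblast-like cells. Gria3 was at 75.6 against 26.6 CPM in the wild-type and 70.0 against 30.7 CPM in the knock-in. Ano3 was at 25.4 against 2.97 CPM and 32.1 against 1.75 CPM. The summed fibroblast markers of the 56 SMC-like cells were 3657 against 3736 CPM and their SMC markers 39336 against 44485 CPM.

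The genes with the highest ratio in both fibroblast-like sets included known p53 targets of different function. Eda2r was at 3.58 for wild-type and 3.52 for knock-in, the p53 cofactor gene Trp53inp1 at 1.86 and 1.96, the exonuclease gene Aen at 1.63 and 1.65, the RNA-binding zinc finger gene Zmat3 at 1.52 and 1.54 and Mdm2, the ubiquitin ligase of p53, at 1.72 and 1.25. Outside the list, the stress cytokine gene Gdf15 was at 3.27 and 2.64 and the mTOR inhibitor gene Ddit4 at 1.92 and 1.71. The channel gene Ano3 was at 3.08 and 4.16. At the other end, Dner was at -1.74 and -1.68. Dpp4 was at -1.87 in the wild-type. Cdkn1a-rich knock-in cells had 0 of its UMIs against 9.89 CPM in cells without Cdkn1a, at least 3.91-fold lower with 3 UMIs (2.53 CPM) as the floor.

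Among the other inhibitors, Cdkn1b stood at log2 ratios of -0.08 and 0.00 in fibroblast-like cells of the wild-type and the knock-in, Cdkn2d at -0.27 and 0.02, and Cdkn2c at 0.84 and 0.87, the last from low levels (9.62 against 5.51 CPM in the wild-type). The p53 gene itself (Trp53) was nearer to level, at 0.17 and 0.30. Immediate early genes were slightly higher on balance, with medians of 0.40 and 0.46 and 1 and 5 of 17 at least 1.5-fold higher. Median mitochondrial shares were 1.71% and 1.98% in Cdkn1a-rich cells and 1.78% and 2.12% in cells with 0. Macrophage-like cells had the highest Cdkn1a level of the 5 classes. There 1 of the 7 measured p53 genes was higher and 1 lower in the wild-type (81 against 145 cells; median 0.03), where 5.82% of 3714 genes were higher. In the knock-in 3 were higher and 2 lower (59 against 125; median -0.12), where 7.27% of 3151 genes were higher. The difference between cell types was not tested.

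**Figure D4:**
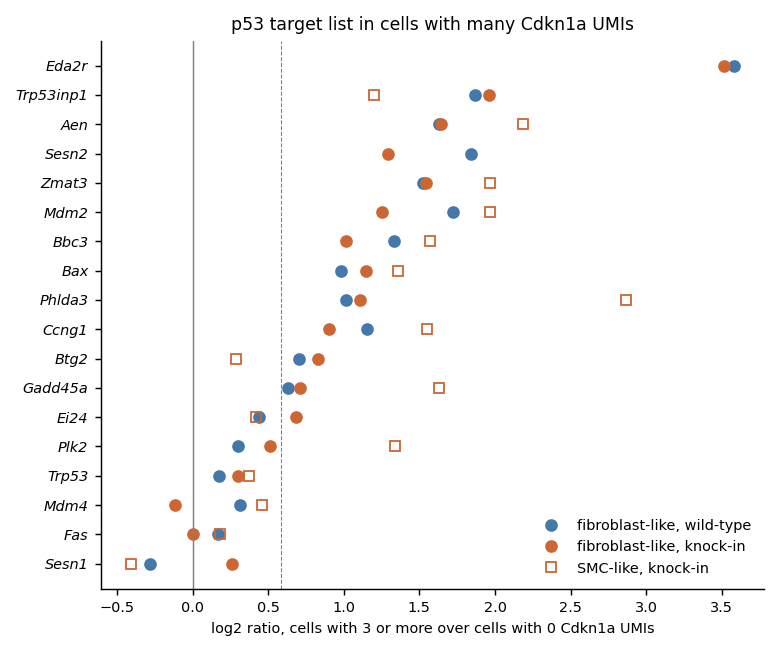
Log2 ratio of cells with 3 or more over cells with 0 Cdkn1a UMIs (all cells thinned to 5000 UMIs) for genes of the p53 list measured in both fibroblast-like sets; filled points are fibroblast-like cells (wild-type blue, knock-in orange), open squares knock-in SMC-like cells, and the dashed line is 1.5-fold. Eda2r lies above 3.5 in both libraries, and Sesn1 and Fas lie near 0.

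Genes with the most similar levels over the 10 class-by-library profiles (5 classes in 2 libraries, 12576 genes with a range of at least 1 on the log2 scale, Pearson r of log2(CPM + 1)) differed by member. The profiles share their libraries and depth, and r is given as a description. Cdkn2c was closest to the condensin genes Ncapd2 (0.98) and Ncapg2 (0.98) and to the recombination gene Rad54l (0.98). Cdkn2d was closest to G2e3 (0.99), Tcf19 (0.99) and the spindle checkpoint gene Bub3 (0.99), and these INK4 genes had an r of 0.93 with each other. Cdkn2a went with Zranb3 (0.99) and the mitotic kinase gene Aurkb (0.97), on few UMIs.

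The other members had no cell-cycle genes among their nearest. Cdkn2b was closest to Actc1 (0.94), a muscle actin gene, followed by Mpv17l and Tango6 (both 0.94). Cdkn1b was closest to Cc2d2a (0.99), Samd14 (0.98) and Gli3 (0.98). Cdkn1a was closest to Sec61a2 (0.91), Ap3s1 (0.91) and Erp29 (0.89), the weakest likeness of the 6, and had an r of -0.20 with Cdkn1b.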

How the data were processed

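The deposited files hold raw UMI counts per gene and barcode without a cell filter, which the authors produced in Cell Ranger (version 7.1.0, per the file headers); the genome build, annotation and treatment of intronic reads are not given in the sources used here. Barcodes with at least 1000 UMIs, 500 genes and at most 10% mitochondrial UMIs were kept. Doublet scores came from scrublet (scanpy 1.11.5); the highest 0.8% per 1000 cells were removed (109 and 330 cells). Both libraries were clustered together (2000 variable genes without the inhibitor genes, 30 principal components, 15 neighbours, Leiden resolution 0.5) into 12 clusters, named from marker lists by a scoring rule adjusted after the clusters were seen.

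UMIs were summed by class and library and divided by total UMIs (CPM). Ratios carry exact conditional binomial, sums exact Poisson intervals, at 95%. Genes counted as measured had at least 50 UMIs over both sums, and 0.5 was added to each sum for counts of genes past 1.5-fold (0.585 on the log2 scale). For 0 UMIs the floor is 3. Cells were thinned to 5000 UMIs where stated. On simulated counts for SMC-like cells (12074 genes, 200 changed 2-fold), 198 were recovered, and 499 unchanged genes also passed 1.5-fold. For fibroblast-like cells (13896 genes) it was 199 and 173. These counts were drawn as Poisson from summed levels, the model of the intervals, and changed genes had at least 50 wild-type UMIs. The simulation thus covers neither the uneven spread of Cdkn1a over cells nor Cdkn2b, with 47 wild-type UMIs in SMC-like cells.

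Members and gene lists were chosen with earlier results of these data known. Besides the members, genes were named as the 2 of each list with most UMIs and the 2 with the largest ratio per comparison; some of these are given only within counts. Names in the comparison by Cdkn1a UMIs were chosen after their values were seen. Alternatives were tried for cell filters, clustering, depth, sex, scaling and free RNA.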

Additional observations from a re-analysis of the deposited data

Results flagged for a closer look

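Cdkn1a went opposite ways in the 2 large fibroblast-like clusters. Knock-in over wild-type, its log2 ratio was -0.22 (-0.28 to -0.16) in the cluster led by Ccn5 and Saa3 and 0.24 (0.16 to 0.32) in the cluster led by Lrrc15 and Myoc. With 1 library per genotype the difference between clusters was not tested, and the intervals cover counting error only. They treat UMIs as independent, whereas thinned Cdkn1a UMIs had a variance over the mean of 4.34 (wild-type) and 4.91 (knock-in) in fibroblast-like cells. The intervals are thus narrower than the spread over cells would give.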

How the results depend on the processing

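Of 272 values under alternatives, 212 stayed within the main interval (for counts, within 1.5 times), 60 moved, and 0 of those past 1.5-fold in the main analysis changed direction. Cdkn1a in SMC-like cells, -1.82 in the main analysis, was -1.68 with at most 5% mitochondrial UMIs, -1.66 with only cells of 8000 to 20000 UMIs, -1.96 with free RNA subtracted, -1.69 without doublet removal, -1.68 with libraries clustered separately and, in an alternative chosen after seeing the data, -1.58 together with the cluster led by Pln and Sncg. Cdkn2c in fibroblast-like cells (1.37) was 0.77 at 8000 to 20000 UMIs, 0.99 in female and 1.72 in male cells. Cdkn2c in wild-type cycling over fibroblast-like cells (5.45) was 3.38 at 8000 to 20000 UMIs, 5.15 in female cells, 5.20 when thinned, 5.21 by the mean of per-cell CPM, 5.67 with free RNA subtracted and 4.91 against all other cells; in the knock-in (4.26) it was 4.80 at 8000 to 20000 UMIs, 4.58 in female cells and 3.38 with cycling cells taken as those with at least 0.3% cell-cycle UMIs. Cdkn2d in wild-type cycling cells (3.53) was 1.86 at 8000 to 20000 UMIs, 3.31 when thinned and 3.38 by the mean of per-cell CPM; in the knock-in (3.64) it was 3.34 in female cells, 3.91 in male cells and 2.73 by the 0.3% threshold.

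The number of inhibitor genes at least 1.5-fold apart in knock-in cycling cells was 2 and became 4 in female cells (4 cycling cells), when thinned, and against all other cells. The added genes were Cdkn1a with Cdkn1b in the first and second and Cdkn1a with Cdkn2b in the third. Cdkn2b had 0 UMIs in knock-in cycling cells, where 3 UMIs would be 5.84 CPM, against 2.02 CPM over all kept knock-in cells. It was counted only because of that 0, without the added 0.5 or the floor, so no difference is read from it. Cdkn1b (0.31) went opposite ways, at -1.09 in female cells on 3 UMIs and 0.81 when thinned on 14. Genes at least 1.5-fold apart numbered 1890 in SMC-like and 2047 in fibroblast-like cells, 3634 and 3868 with a minimum of 10 UMIs, and 7655 and 8514 with none; in cycling cells 4730 and 6438 became 11664 and 14419 with none, mostly genes of few UMIs. No value was had for cycling cells without doublet removal, at Leiden resolution 1.0 or with libraries clustered separately. There, clusters whose best list was cycling were led by mast cell genes, T cell genes or both, and stayed unnamed. In the main clustering SMC-like cells were 1 cluster, so no value was had for the largest cluster of that class alone. Requiring 5 or more Cdkn1a UMIs, chosen after seeing the data, kept the p53 counts within 1.5 times. No paired analysis was possible because each genotype has 1 library. Cdkn2a in every class and Cdkn2b outside SMC-like cells were read on few UMIs, such as 34 of Cdkn2b in wild-type fibroblast-like cells (0.628 CPM, 0.435 to 0.877). No interval covers differences between mice.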
